A study of Mus musculus with 6 samples.

Results

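The collagen genes were taken as every protein-coding gene of the count table whose symbol is Col, a type number, the letter a and a chain number, which gave 44 of the 55039 listed genes. Of these, 11 were fibrillar, 8 belonged to basement membranes and 25 were of other kinds, and 35 of the 44 passed the filter on counts and were tested. The study compared epididymal white adipose tissue (eWAT) of 3 male C57BL/6 mice bearing Lewis lung carcinoma (LLC, a mouse lung cancer line grown under the skin) with eWAT of 3 male C57BL/6 mice given phosphate-buffered saline (PBS) alone, as a model of cancer-associated cachexia. The mice were 6 to 7 weeks old when assigned, and fat was collected 28 days after injection. The tumour group is called CAC and the control group CONT and CONT 1 to 3 and CAC 1 to 3 are the libraries of single mice. As a model it holds 1 implanted tumour line in young males of 1 strain.

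Collagens are triple-stranded proteins of the extracellular matrix. Fibrillar chains such as those of types I, III and V build the tensile fibres around cells, type IV chains form the sheet-like network of basement membranes, which in fat surrounds each adipocyte and each capillary, and type VI forms fine beaded filaments that link both. In adipose tissue most fibrillar collagen is made by fibroblasts and adipocyte progenitors, while basement membrane chains are also made by adipocytes and endothelial cells. Each chain is processed inside the cell by hydroxylases and chaperones and outside it by proteinases and crosslinking enzymes.

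Collagen mRNA was lower in eWAT of the CAC mice, and the fibrillar chains differed most. Counts on the 11 fibrillar genes came to 2124 ± 486 CPM in CONT and 589 ± 342 CPM in CAC (mean ± SD, n = 3 mice per group), a level 3.61 times as high in CONT, and the groups did not overlap. CPM are counts scaled to a common library total after edgeR's TMM (trimmed mean of M values) scaling. Basement membrane genes summed to 2031 ± 604 CPM in CONT and 1225 ± 482 CPM in CAC, 1.66 times as high in CONT, with overlap between the groups. The remaining collagens summed to 945 ± 357 CPM and 409 ± 133 CPM, 2.31 times as high in CONT. In whole tissue, fewer cells of a type and less RNA per cell cannot be told apart.

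No single collagen passed an adjusted p under 0.05 in edgeR's quasi-likelihood test with Benjamini-Hochberg adjustment over the 17296 genes tested, and neither did any other gene (0%). From edgeR, levels, their differences and counts at an unadjusted p are therefore given. The smallest adjusted p among the collagens was 0.228. At an unadjusted p under 0.05, 13 of the 35 tested collagens were lower in CAC and 0 were higher. That is 37.1% of them, where 6.95% of all tested genes were lower and 6.31% were higher at the same p. By sign alone, 32 of the 35 (91.4%) were lower in CAC, beside 54.1% of all tested genes, and the median log2 fold change was -1.11 for the collagens and -0.06 for all genes. In 10 collagens (28.6%) every CAC library lay below every CONT library, beside 10.7% of all genes, and in 1 collagen every CAC library lay above, beside 11.8%. DESeq2, the package the study used, gave an adjusted p under 0.05 to 7 of the 34 collagens for which it returned one (20.6%), all lower in CAC, beside 2.4% of all genes, and to 0 in the higher direction, beside 3.22%. These 7 were Col3a1, Col5a3, Col1a1, Col5a1, Col15a1, Col4a4 and Col6a2. Without CONT 1, DESeq2 gave such a p to 17 of 38 collagens in the lower direction (44.7%), beside 5.18% of all genes.

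**Figure D1:**
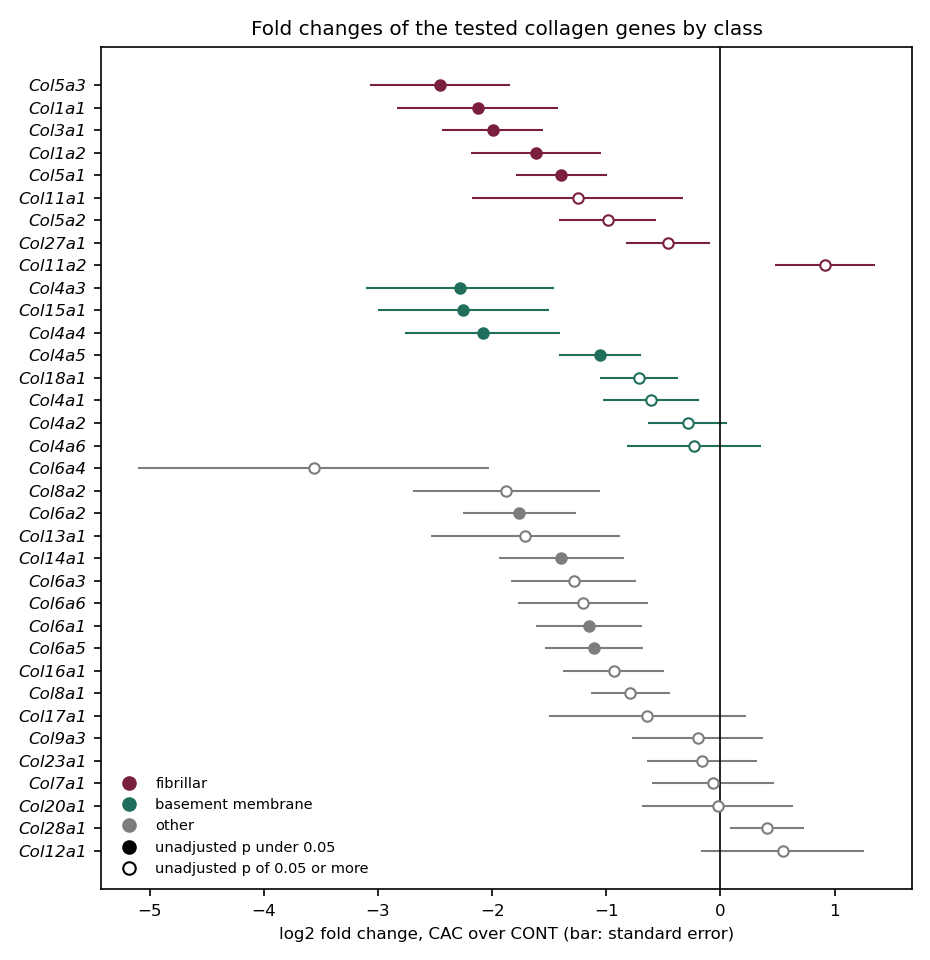
Log2 fold change of CAC over CONT from edgeR for the 35 tested collagen genes, sorted within the fibrillar, basement membrane and other classes, with bars for the standard error and filled points for an unadjusted p under 0.05. The 13 filled points all lie below 0, and Col11a2, Col12a1 and Col28a1 are the 3 points above it.

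The libraries held 15713794 to 25926425 counts, CONT 1 being the smallest, and 1 CPM stood for 11.2 to 26.5 reads. Mitochondrially encoded genes took 30.2% of the counts of CONT 1 and 3.89 to 5.04% of those of the other libraries. CONT 3 had 12020 CPM summed over 10 marker genes of the epididymis, the organ to which this fat pad is attached, where CONT 1 had 232, CONT 2 had 3.85 and the CAC libraries at most 1.25. The 10 adipocyte markers were detected in every library and summed to 24482 to 56419 CPM in CONT and 36755 to 50276 CPM in CAC. Without CONT 1, 19 of 39 tested collagens were lower at an unadjusted p under 0.05, where 8.28% of all genes were, and without CONT 3 it was 4 of 38, where 4.25% of all genes were.

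The upstream sequences of the 4 collagens that had an unadjusted p under 0.05, a mean of at least 10 FPKM (fragments per kilobase of gene, scaled to library size), a single listed start and no annotated exon in the window are shown first, as the abundant collagens with a difference at that p whose upstream window could be read without ambiguity. Each is the 250 bases before the RefSeq start on GRCm38.p6, read 5′ to 3′ on the strand of the gene. Capitals mark each match, on either strand, to the letters CCAAT, to those of a TATA box, here TATAAA, or to those of a GC box, here GGGCGG. Col3a1 lies on the plus strand with its window at chr1:45311288-45311537, Col5a3 on the minus strand at chr9:20815068-20815317, Col5a1 on the plus strand at chr2:27886175-27886424, and Col15a1 on the plus strand at chr4:47207762-47208011.
Col3a1: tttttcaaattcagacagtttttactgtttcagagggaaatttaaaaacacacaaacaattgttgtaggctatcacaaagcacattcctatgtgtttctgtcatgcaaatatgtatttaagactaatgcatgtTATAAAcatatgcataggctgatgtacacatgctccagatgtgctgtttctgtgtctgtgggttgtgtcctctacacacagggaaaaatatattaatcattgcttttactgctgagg
Col5a3: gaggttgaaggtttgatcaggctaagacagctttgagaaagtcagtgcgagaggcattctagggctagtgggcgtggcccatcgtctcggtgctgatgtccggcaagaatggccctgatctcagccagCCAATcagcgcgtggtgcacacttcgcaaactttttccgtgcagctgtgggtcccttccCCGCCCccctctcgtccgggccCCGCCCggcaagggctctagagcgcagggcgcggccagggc
Col5a1: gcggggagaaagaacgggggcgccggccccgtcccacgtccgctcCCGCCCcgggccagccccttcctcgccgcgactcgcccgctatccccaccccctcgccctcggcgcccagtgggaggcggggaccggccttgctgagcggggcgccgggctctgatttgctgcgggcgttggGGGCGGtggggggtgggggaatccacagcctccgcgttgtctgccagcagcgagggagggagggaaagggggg
Col15a1: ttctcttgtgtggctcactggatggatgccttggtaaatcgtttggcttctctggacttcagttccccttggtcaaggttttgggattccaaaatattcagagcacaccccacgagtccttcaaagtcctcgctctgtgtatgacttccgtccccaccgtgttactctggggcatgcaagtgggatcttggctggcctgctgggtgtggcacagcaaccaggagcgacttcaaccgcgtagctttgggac
No motif was held by all 4 windows. The Col3a1 window is poor in G and C (35.2%) and holds 1 TATA box match, that of Col5a3 (62.8% G and C) holds 1 CCAAT match and 2 GC box matches, that of Col5a1 (76.4%) holds 2 GC box matches, and that of Col15a1 (53.6%) holds no match to the 3 motifs. Among 38 collagen windows, from the 35 collagens with a RefSeq entry, 13 held CCAAT, 5 held TATAAA and 22 held GGGCGG, where 33.8%, 12.4% and 32.7% of 32851 promoter windows of the same length did. A match is a run of letters and says nothing of binding.

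Among the fibrillar collagens, 5 of the 9 tested (55.6%) were lower in CAC at an unadjusted p under 0.05, beside 6.95% of all genes, the same number had groups that did not overlap with CAC lower, beside 10.7%, and the median log2 fold change was -1.39 (-1.66 without CONT 1 and -1.02 without CONT 3). Col3a1, the single chain of type III collagen, which forms the fine fibres of loose connective tissue, stood at 539, 982 and 941 CPM in CONT 1 to 3 and at 317, 173 and 127 CPM in CAC 1 to 3. Its log2 fold change was -2.0 (SE 0.44, unadjusted p = 0.00308, edgeR adjusted p = 0.228), and the highest CAC library lay well under the lowest CONT library. Col1a1, which supplies the alpha 1 chain of type I collagen, the main fibre of most tissues, stood at 194, 324 and 306 CPM in CONT and at 117, 57.5 and 14.3 CPM in CAC. The spread within CAC was wide here, CAC 1 being far above CAC 3, and the log2 fold change was -2.13 (SE 0.70, edgeR adjusted p = 0.305). Col1a2, the partner chain of type I, stood at 373, 460 and 458 CPM in CONT and at 245, 131 and 46.3 CPM in CAC, with the libraries in the same order in CAC and no overlap (log2 fold change -1.62, SE 0.57, edgeR adjusted p = 0.324). For all 3 genes CONT 1 was the lowest control. The log2 fold changes were -2.88 for Col1a1 and -2.23 for Col1a2 without CAC 1, and -1.65 and -1.19 without CAC 3.

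Type V collagen sits inside type I fibrils and limits their width, and its chains differed in their spread. Col5a3 had the largest log2 fold change of the fibrillar genes at -2.45 (SE 0.61, edgeR adjusted p = 0.25), from 298, 373 and 344 CPM in CONT to 124, 33.3 and 27.8 CPM in CAC. The controls were close together, and CAC 1 stood apart from the other tumour mice. The log2 fold change of Col5a3 was -3.42 without CAC 1 and -2.09 without CAC 3. Col5a1 stood at 93.4, 181 and 184 CPM in CONT and at 84.6, 52.9 and 37.0 CPM in CAC, so that CONT 1 was only just above CAC 1 (log2 fold change -1.39, SE 0.40, edgeR adjusted p = 0.275). Col5a2 stood at 53.6, 112 and 111 CPM in CONT and at 71.9, 37.1 and 30.7 CPM in CAC. Its groups overlapped, CONT 1 being below CAC 1, and its log2 fold change of -0.99 (SE 0.42) had an unadjusted p of 0.0554. Col5a2 lies tail to tail with Col3a1 on chromosome 1, with 24614 bases between their ends.

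The minor fibrillar genes had low levels. Col11a2, a chain of the cartilage fibril type XI, was the 1 collagen with every CAC library above every CONT library, at 1.69, 1.45 and 1.31 CPM in CONT and 2.71, 1.90 and 3.78 CPM in CAC. The log2 fold change was 0.92 (SE 0.44, unadjusted p = 0.078, edgeR adjusted p = 0.421). Col27a1 was between 4.93 and 13.4 CPM in all libraries, with a log2 fold change of -0.46 (SE 0.37) and overlapping groups. Col11a1 stayed at or under 2.12 CPM, and Col2a1 and Col24a1 were not tested.

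**Figure D2:**
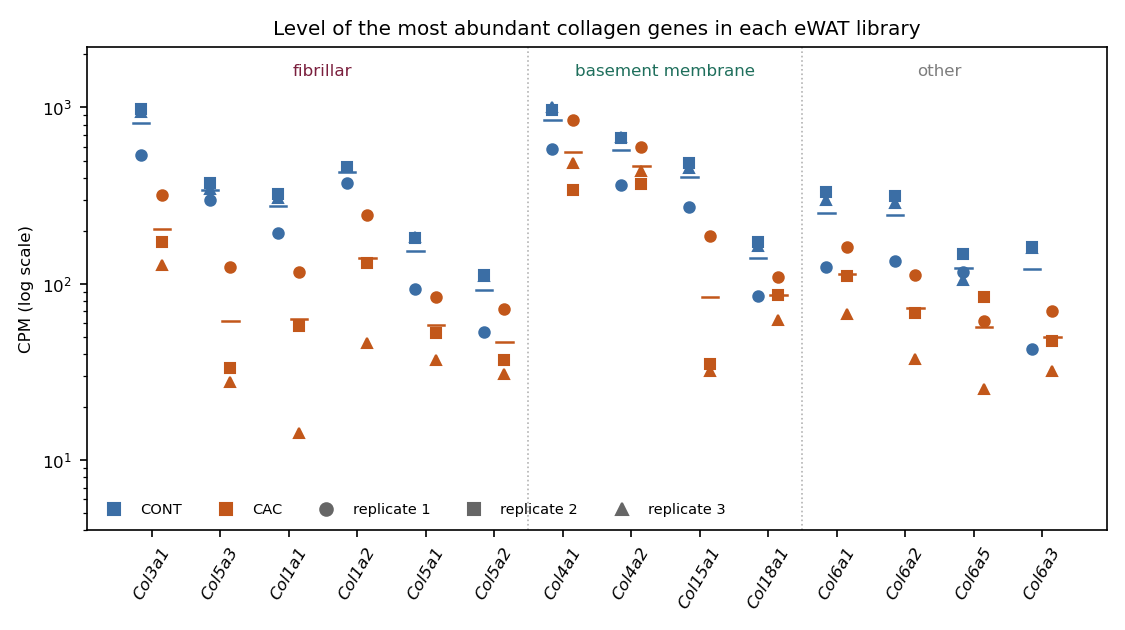
CPM of the 14 collagen genes with a mean of at least 5 FPKM, on a log axis, 1 point per library (shape for the replicate number, colour for the group), with the group mean as a bar. The CAC points lie below the CONT points in 8 of the 14 genes, beside 10.7% of all tested genes. Col4a1 and Col4a2, the 2 most abundant per length, are among the 6 with overlap.

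In the basement membrane class all 8 genes were tested and all 8 had a negative log2 fold change, 4 of them (50%) with an unadjusted p under 0.05, beside 6.95% of all genes, 2 (25%) with groups that did not overlap, beside 10.7%, and a median of -0.88 (-1.08 without CONT 1 and -0.75 without CONT 3). Col15a1 codes for a proteoglycan collagen found where basement membranes meet the fibrous matrix, and it stood at 272, 485 and 451 CPM in CONT and at 187, 35.1 and 32.2 CPM in CAC. CAC 1 was again nearest to the controls, and the log2 fold change was -2.25 (SE 0.75, edgeR adjusted p = 0.305), or -3.52 without CAC 1 and -1.85 without CAC 3. Col18a1, its close relative and the source of endostatin, had a log2 fold change of -0.71 (SE 0.34, unadjusted p = 0.0781) with overlapping groups. Col18a1 overlaps the gene Slc19a1 on the opposite strand, whose reads came to 19.6% of those of Col18a1.

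Col4a1 and Col4a2 code for the chains of the common type IV network and were the most abundant collagens per length in both groups. Col4a1 averaged 91.3 ± 24.4 FPKM in CONT and 61.1 ± 29.4 FPKM in CAC, and Col4a2 averaged 69.3 ± 21.6 and 57.8 ± 15.3 FPKM (SD, n = 3). In CPM, Col4a1 stood at 581, 965 and 999 in CONT and at 849, 339 and 482 in CAC. Col4a2 stood at 361, 668 and 684 CPM in CONT and at 600, 366 and 437 CPM in CAC. In both genes CAC 1 was above CONT 1 and the groups overlapped, with log2 fold changes of -0.61 (SE 0.42, unadjusted p = 0.193) and -0.29 (SE 0.35, unadjusted p = 0.435). These genes are transcribed away from each other on chromosome 8 and their annotated ends share 22 bases, from 11312805 to 11312826 on GRCm38.

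The rarer type IV chains were spread more widely, Col4a6 having the smallest log2 fold change of the class and Col4a3 the largest. Col4a5, which joins the other rare chains in specialised basement membranes, stood at 21.9, 31.8 and 33.3 CPM in CONT and at 15.1, 18.8 and 7.93 CPM in CAC, without overlap (log2 fold change -1.06, SE 0.36, edgeR adjusted p = 0.311). Col4a6, its neighbour 1308 bases away and in the opposite direction on the X chromosome, was between 4.19 and 14.8 CPM in all libraries, with a log2 fold change of -0.23 (SE 0.59) that turned positive without CONT 3 or without CAC 3. Col4a4 stood at 5.44, 36.2 and 22.2 CPM in CONT and at 4.07, 7.18 and 3.85 CPM in CAC, and Col4a3 at 1.52, 13.4 and 9.09 CPM in CONT and 2.01, 2.14 and 0.793 CPM in CAC. For both, CONT 2 and CONT 3 were above every CAC library while CONT 1 was not. The log2 fold changes were -2.08 (SE 0.68, edgeR adjusted p = 0.301) for Col4a4 and -2.28 (SE 0.83, edgeR adjusted p = 0.335) for Col4a3, and without CONT 2 they were -1.46 and -1.69. Col4a3 and Col4a4 are mutated in inherited kidney disease of the glomerular basement membrane, and they start head to head on chromosome 1. The 71 bases between their annotated starts, chr1:82586850-82586920, are printed here on the minus strand, that of Col4a4, because this interval lies upstream of both genes, and it holds no match to the 3 motifs. Read 5′ to 3′ as printed, it begins beside the Col4a3 start and ends beside the Col4a4 start. The label names the pair of genes and not the direction.
Col4a4 to Col4a3: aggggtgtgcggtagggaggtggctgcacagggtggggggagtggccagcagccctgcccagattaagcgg

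Of the other collagens, 18 of 25 were tested, 4 (22.2%) were lower in CAC at an unadjusted p under 0.05, beside 6.95% of all genes, 3 (16.7%) had groups that did not overlap, near the 10.7% of all genes, and the median log2 fold change was -1.02 (-1.13 without CONT 1 and -0.52 without CONT 3). All 6 type VI genes were tested and had a negative log2 fold change, with a median of -1.24, and they made up 3 of the 4 and all 3 of those without overlap. Col6a2 stood at 136, 314 and 289 CPM in CONT and at 112, 68.1 and 37.7 CPM in CAC, with CONT 1 only a little above CAC 1 (log2 fold change -1.76, SE 0.49, edgeR adjusted p = 0.273). Col6a1 stood at 125, 331 and 298 CPM in CONT and at 161, 111 and 67.6 CPM in CAC, where CONT 1 was below CAC 1 (log2 fold change -1.15, SE 0.47, edgeR adjusted p = 0.367). Col6a3, the long chain from which endotrophin is cut, stood at 42.8, 162 and 160 CPM in CONT and at 70.4, 47.3 and 32.1 CPM in CAC. CONT 1 was lower than CAC 1 and CAC 2 in this gene, and the log2 fold change of -1.29 (SE 0.55) had an unadjusted p of 0.0528.

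The 3 remaining type VI genes lie in a row on chromosome 9 in the same direction, 27917 and 28810 bases apart. Col6a5 stood at 116, 147 and 105 CPM in CONT and at 61.2, 84.2 and 25.2 CPM in CAC, without overlap (log2 fold change -1.11, SE 0.43, edgeR adjusted p = 0.353). Col6a6 stood at 31.0, 41.6 and 41.1 CPM in CONT and at 26.9, 17.8 and 4.80 CPM in CAC, also without overlap (log2 fold change -1.20, SE 0.57, unadjusted p = 0.0754). Col6a4 had 34.5 CPM in CONT 3 and at most 2.15 CPM in the other libraries, so its log2 fold change of -3.56 (SE 1.54) rested on the library with high epididymal markers, whose part in it was not tested. Without CONT 3 that log2 fold change was -0.31.

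Col14a1, a fibril-associated collagen that binds the surface of type I fibrils, stood at 25.5, 54.8 and 74.7 CPM in CONT and at 29.6, 20.8 and 8.76 CPM in CAC. CONT 1 lay below CAC 1, and the log2 fold change was -1.39 (SE 0.54, edgeR adjusted p = 0.356). Col16a1, of the same kind, had a log2 fold change of -0.94 (SE 0.44) and Col12a1 had one of 0.54 (SE 0.72), both with overlap, the latter being 0.10 without CONT 1 and 1.30 without CONT 3. The short-chain network genes Col8a1 and Col8a2, known from vessel walls and the cornea, had log2 fold changes of -0.79 (SE 0.34, unadjusted p = 0.0571) and -1.87 (SE 0.82, unadjusted p = 0.0579), the latter being -2.82 without CAC 2. Col28a1, a collagen of peripheral nerve, had one of 0.41 (SE 0.33), and its levels in CAC (14.8 to 18.8 CPM) overlapped those in CONT (9.04 to 17.7 CPM). Of the transmembrane collagens, Col13a1 had a log2 fold change of -1.71 (SE 0.83), Col17a1 one of -0.64 (SE 0.86) and Col23a1 one of -0.16 (SE 0.48). Col7a1, Col9a3 and Col20a1 had log2 fold changes of -0.07, -0.20 and -0.03. These genes, Col17a1 and Col23a1 each changed sign when some single library was left out. Col9a3 and Col20a1 overlap other genes with more reads than their own, Tcfl5 and 9230112E08Rik, so their counts are uncertain. Not kept by edgeR's filter on counts per library were Col2a1, Col9a1, Col9a2, Col10a1, Col19a1, Col22a1, Col24a1, Col25a1 and Col26a1, with 6 to 736 reads each over the 6 libraries. Col22a1, a collagen of tissue junctions, had more reads in all than several tested genes, but most of them in CONT 2 (10.6 CPM) and CAC 3 (17.9 CPM). Col2a1, the fibrillar chain of cartilage, likewise had most of its reads in CONT 2 (2.63 CPM) and CAC 3 (4.83 CPM).

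The 14 genes with a mean of at least 5 FPKM all had a negative log2 fold change, beside 54.1% of all tested genes, with a median of -1.34. Of these 14, 9 were lower at an unadjusted p under 0.05, beside 6.95% of all tested genes. The 21 tested collagens below that level had a median of -0.79, and 4 were lower at that p, beside the same 6.95%. The difference between the medians was not tested, and Col4a1 and Col4a2, the most abundant collagens, had log2 fold changes nearer 0 than the median of either set. CONT 1 was the lowest control in 28 of the 35 tested genes, and CAC 3 was the lowest tumour mouse in 21 of them and in all 13 with an unadjusted p under 0.05. CAC 1 was the highest tumour mouse in 16 of the 35 and in 13 of the 14 abundant genes. All collagens together took 0.245%, 0.694% and 0.627% of the counts of CONT 1 to 3 and 0.318%, 0.196% and 0.163% of those of CAC 1 to 3. The 95% Wilson interval of the smallest share ran from 0.162 to 0.165%, which covers counting error only and is much narrower than the spread between mice. CONT 1 fell between the CAC libraries on this measure, and with mitochondrially encoded genes left out of the total its share was 0.351%, above the 0.335% of CAC 1 and the 0.206% and 0.171% of CAC 2 and CAC 3.

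The make-up of the collagen mRNA differed between the groups as well, a measure that does not depend on the size or scaling of a library. Fibrillar genes held 39.5%, 34.7% and 34.4% of the summed collagen FPKM in CONT 1 to 3 and 24.2%, 21.9% and 14.8% in CAC 1 to 3. Basement membrane genes held 43.1%, 43.1% and 44.4% in CONT and 57.7%, 51.3% and 67.0% in CAC. Neither pair of groups overlapped. CONT 1, which had low levels of most collagens, had a basement membrane share near that of the other controls. Its fibrillar share was the highest of all libraries, and its share in the other class, 17.4%, was the lowest. The other class held 20.3 ± 2.52% and 21.0 ± 5.03% (SD, n = 3). By gene, Col3a1 held 12.5 ± 0.143% in CONT and 6.85 ± 0.805% in CAC, while Col4a1 held 17.0 ± 0.666% and 24.7 ± 5.46% and Col4a2 held 12.8 ± 0.602% and 24.5 ± 4.95%. The order of abundance per length was Col4a1, Col4a2, Col3a1, Col15a1 and Col6a1 in CONT and Col4a1, Col4a2, Col6a1, Col3a1 and Col15a1 in CAC, and neighbours in the order lay within the larger of their SDs, other than Col4a2 and Col6a1 in CAC.

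**Figure D3:**
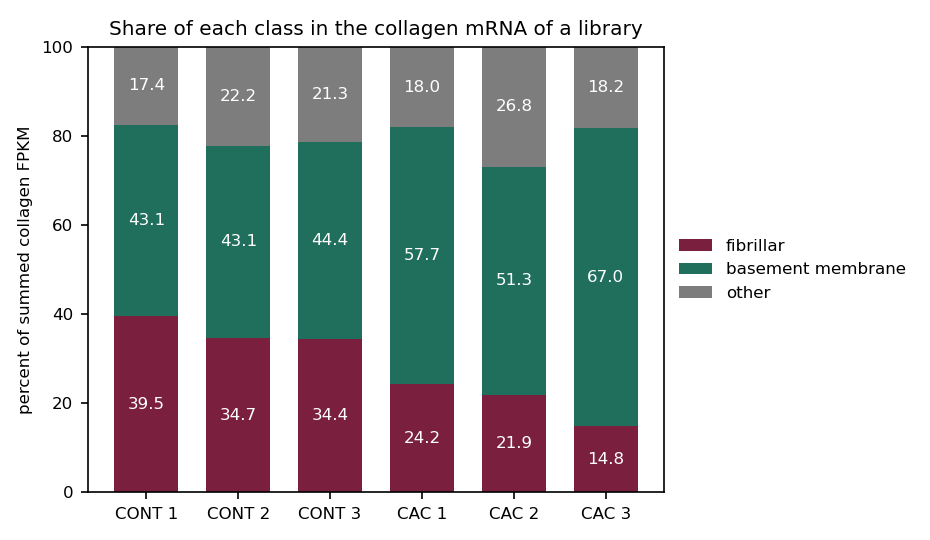
Percent of the summed collagen FPKM of each library held by fibrillar, basement membrane and other collagens, 1 stacked bar per library. The fibrillar share is 34.4 to 39.5% in the 3 CONT bars and 14.8 to 24.2% in the 3 CAC bars.

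Chains that assemble into 1 molecule were then set against each other within each library, over 5 pairs. With 3 mice in each group the smallest p of the exact two-sided permutation test is 0.1, or 0.125 here after adjustment over the 5 pairs, so none of these differences could pass. The FPKM ratio of Col1a1 to Col1a2 was 0.987, 1.33 and 1.26 in CONT and 0.906, 0.832 and 0.587 in CAC, without overlap (exact permutation p = 0.1). Type I collagen contains the alpha 1 chain in excess of the alpha 2 chain. The ratio of Col4a1 to Col4a2 was 1.43, 1.28 and 1.30 in CONT and 1.25, 0.822 and 0.979 in CAC, again without overlap (exact permutation p = 0.1). The ratio of Col6a1 to Col6a2 was 1.75, 2.01 and 1.96 in CONT and 2.73, 3.11 and 3.41 in CAC, every tumour mouse being above every control (exact permutation p = 0.1). Col6a3 over Col6a2 went the same way, from 0.322 ± 0.0896 to 0.505 ± 0.0800, also without overlap. Col6a3 over Col6a1 was 0.167 ± 0.0373 in CONT and 0.163 ± 0.00947 in CAC (SD, n = 3, exact permutation p = 1), so that of the 3 type VI chains Col6a2 was the one whose level was lower relative to the others.

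**Figure D4:**
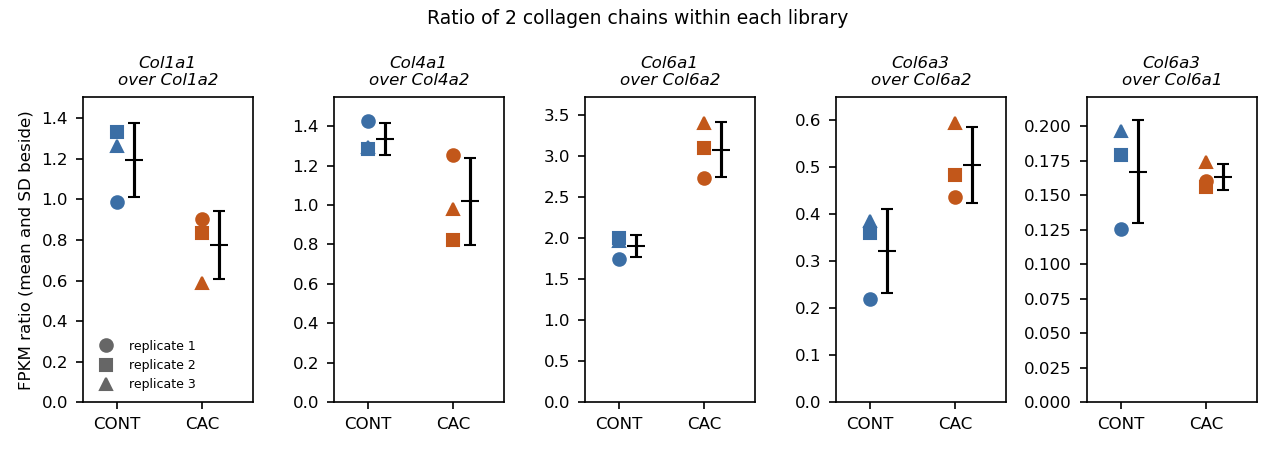
FPKM ratio of 5 pairs of collagen chains in each library (points, shape for the replicate number) with the mean and SD of each group beside them, each panel on its own linear axis from 0. The groups are separate in the first 4 panels and mixed in the last, where the means are 0.167 and 0.163.

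The enzymes and partners of collagen were read from 5 lists. Of 19 tested genes for folding and hydroxylation inside the cell, 3 were lower in CAC at an unadjusted p under 0.05 and 0 were higher, beside 6.95% and 6.31% of all tested genes, and the median log2 fold change was -0.14. Serpinh1, the collagen chaperone HSP47, stood at 572, 359 and 297 CPM in CONT and at 225, 111 and 118 CPM in CAC (log2 fold change -1.43, SE 0.40, edgeR adjusted p = 0.273). Creb3l1, a transcription factor that drives procollagen genes, had a log2 fold change of -1.60 (SE 0.36, edgeR adjusted p = 0.228) and Fkbp10, another chaperone, one of -0.59 (SE 0.22). All 3 had groups that did not overlap, and in all 3 CONT 1 was the highest control, whereas it was the lowest in 28 of the 35 tested collagens.

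Of 13 tested genes for cleavage and crosslinking, 4 were lower at an unadjusted p under 0.05 and 0 higher, beside the same 6.95% and 6.31%, with a median log2 fold change of -0.33. Pcolce, which speeds removal of the C-terminal propeptide, stood at 65.4, 66.5 and 52.9 CPM in CONT and at 30.9, 28.8 and 32.5 CPM in CAC, with little spread in either group (log2 fold change -1.0, SE 0.17, unadjusted p = 0.000765, edgeR adjusted p = 0.215). Bmp1, the proteinase it assists, had a log2 fold change of -0.74 (SE 0.24). The crosslinking enzymes Loxl1 and Loxl2 had log2 fold changes of -1.52 (SE 0.49) and -0.77 (SE 0.29), both without overlap.

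Of 14 tested genes for proteins that bind fibrils, 4 were lower and 1 was higher at that p, with a median of -0.51. The small proteoglycans Lum and Aspn had log2 fold changes of -1.04 (SE 0.39) and -0.64 (SE 0.23), and Sparc, a collagen-binding matricellular protein, had one of -1.31 (SE 0.53). Dcn, another small proteoglycan, named after its values were seen, stood higher in CAC, at 973, 780.4 and 824 CPM in CONT and 1297, 1498 and 1099 CPM in CAC, without overlap (log2 fold change 0.60, SE 0.27, unadjusted p = 0.0615). Thbs2, an anti-angiogenic matricellular protein, was higher in CAC with a log2 fold change of 1.62 (SE 0.55, unadjusted p = 0.0235), at 16.3, 20.1 and 33.0 CPM in CONT and 122, 62.9 and 28.2 CPM in CAC, where CAC 3 lay below CONT 3. Of 16 basement membrane partners 1 was lower, Nid2, a nidogen that bridges laminin and type IV collagen, with a log2 fold change of -1.16 (SE 0.48) and overlapping groups. That count is no higher than the 6.95% of all tested genes, and the median of the list was -0.23. Of 12 tested receptors and uptake genes 2 were lower, the receptor tyrosine kinase Ddr1 with a log2 fold change of -1.30 (SE 0.41) and the proteoglycan Cspg4 with one of -1.25 (SE 0.31), both without overlap, and the median was -0.13. Over the 74 tested genes of the 5 lists, 14 were lower and 1 was higher at an unadjusted p under 0.05, beside 6.95% and 6.31% of all tested genes, while edgeR's adjusted p was under 0.05 for 0 of them. The number lower was 5 without CONT 2 and 5 without CONT 3, where 5.3% and 4.25% of all tested genes were lower, and it was 7 without CAC 2 and 6 without CAC 3, where 3.69% and 4.47% were.

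Markers of the cells that make collagen moved with the result in part. A list of 12 fibroblast and progenitor markers, all detected, summed to 1005 to 1059 CPM in CONT and 552 to 780 CPM in CAC, 1.5 times as high in CONT and without overlap. Of these 12, 4 were lower at an unadjusted p under 0.05, namely Thy1, Pi16, Fbn1 and Meox1, beside 6.95% of all tested genes. Among these, Fbn1 had overlapping groups. The broad markers Pdgfra and Pdgfrb had log2 fold changes of -0.07 and 0.01. By sign, 11 of the 12 were lower in CAC and 1 was higher. Single markers of this list were named after their values were seen. Divided by the sum of the 12 markers, all collagens were 4.97 ± 1.5 in CONT and 3.18 ± 0.894 in CAC, 1.56 times as high in CONT. The groups overlapped, with CONT 1 at 3.24 and CAC 1 at 4.18. Fibrillar collagens were 2.07 ± 0.515 and 0.823 ± 0.367 on this scale, 2.51 times as high in CONT and without overlap. Basement membrane collagens were 1.98 ± 0.624 and 1.78 ± 0.548, 1.11 times as high and with overlap (SD, n = 3). Apart from the epididymal list given above, the summed levels of the remaining lists overlapped between the groups. Endothelial markers summed to 1576 to 3443 CPM in CONT and 2223 to 2559 CPM in CAC, mural and smooth muscle markers to 1223 to 1301 and 900.3 to 1519 CPM, mesothelial markers to 220.5 to 274 and 106 to 304 CPM, and macrophage markers to 759.8 to 2128 and 958 to 1715 CPM. Schwann cell markers summed to 235 to 275 CPM in CONT and 127 to 323 CPM in CAC, and skeletal muscle markers to 12.6 to 56.0 and 15.6 to 51.4 CPM. The part of any of these cell types in the collagen levels was not tested.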

How the data were processed

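Total RNA of eWAT from 6 mice was poly(A)-selected and sequenced by the authors. The submitters' processing notes name HISAT2 2.0.5 and featureCounts 1.5.0-p3, and the reference was Ensembl release 94 per the study's methods. Whether counting used strand is not given in the sources used here. The deposited table holds raw whole-number counts per gene, and the FPKM values that the authors deposited are per gene length and a library total that differs from the sum of the counts, at 0.879 times that sum in CONT 1 and 1.18 to 1.44 times in the others.

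Counts were analysed here in R 4.3.3 with edgeR 4.0.16 (TMM, filterByExpr by group, robust quasi-likelihood test, condition as the only term) across all genes, with Benjamini-Hochberg adjustment. The common dispersion was 0.265. Alternatives were DESeq2 1.42.0 (alpha 0.05, with and without CONT 1), limma 3.58.1 on log2 FPKM with a pseudocount of 1 or 0.1 (genes reaching 0.5 FPKM in 3 libraries), other scalings and filters, a replicate block, each library left out and, chosen after seeing the data, offsets for length and GC content and the omissions for pathway lists, chain ratios and class shares. The fit was tested on simulated data. The mice are separate animals per the series' design text.

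Named collagens are those tested, with library values for an unadjusted p under 0.05, groups without overlap, the 2 most abundant of each class and the trimers of types I, IV and VI. Col2a1, Col5a2, Col6a4 and Col22a1 were given library values outside this rule, chosen after their values were seen. Named pathway genes are at most 4 per list with such a p, those of smallest p. Members and lists were chosen with earlier results of these data known. Gene positions are those of the deposited table. Promoters are from RefSeq on GRCm38.p6, and protein sequences were not used here.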

Additional observations from a re-analysis of the deposited data

How the results depend on the processing

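The median log2 fold change of each collagen class kept its sign under every alternative, at -1.87 to -1.02 for fibrillar, -1.08 to -0.64 for basement membrane and -1.18 to -0.52 for the other collagens. The number of collagens lower at an unadjusted p under 0.05 was 13 and ran from 4 to 19 with each library left out, being 19, 7 and 4 without CONT 1, 2 and 3 (beside 8.28%, 5.3% and 4.25% of all genes) and 12, 8 and 9 without CAC 1, 2 and 3 (beside 5.37%, 3.69% and 4.47%). DESeq2 without CONT 1 gave 21 lower and 2 higher of 44 collagens at that p, beside 6.27% of all genes lower. The number higher was 0 and ran from 0 to 1 with a library left out (1 without CONT 1), and was 1 with at least 10 counts required in every library. The number with an adjusted p under 0.05 was 0 in edgeR, 0 in each edgeR fit without 1 library, 7 in DESeq2 and 18 in DESeq2 without CONT 1, of which 17 were lower and Col28a1 was higher. Of all genes, 2.4% and 5.18% were lower at that adjusted p in DESeq2 with and without CONT 1. The cause of these differences between fits was not tested. Over the pathway lists, 14 genes were lower, with a range of 5 to 16 as libraries were left out, at 5 without CONT 2 and 5 without CONT 3 (beside 5.3% and 4.25% of all genes), 7 without CAC 2 and 6 without CAC 3 (beside 3.69% and 4.47%). The 1 higher gene became 0 to 2 with a library left out (0 without CONT 2, 2 without CAC 3), and 2 in DESeq2, 2 in DESeq2 without CONT 1, 2 and 2 in limma on FPKM with either pseudocount and 2 with offsets for length and GC content. Same-numbered mice of the groups did not all deviate together (correlations 0.31, -0.15 and -0.22). With the replicate number as a block 13 collagens were lower, beside 6.29% of all genes, and the class medians were -1.43, -0.90 and -0.99. RLE scaling gave 14 lower, upper-quartile scaling 15 and the offsets 15, beside 6.68%, 7.37% and 7.16% of all genes. FPKM in limma, where 26 collagens were tested, gave 11 and 9, beside 6.27% and 6.38%. The 10 and 1 collagens without overlap, beside 10.7% and 11.8% of all genes in CPM, were 10 and 1 under each scaling. With each library left out in turn, the log2 difference of the chain ratios ran from -0.77 to -0.45 for Col1a1 to Col1a2, -0.57 to -0.27 for Col4a1 to Col4a2, 0.61 to 0.77 for Col6a1 to Col6a2 and 0.43 to 0.83 for Col6a3 to Col6a2, and the difference in class share from -17.8 to -13.1 percentage points (fibrillar) and 11.0 to 18.8 (basement membrane). Of the single genes, 6 with an unadjusted p over 0.4 changed sign under an alternative, on the log2 scale. Col7a1 was 0.0040 without a filter, 0.0187 with the offsets and -0.30 to 0.42 with a library left out. Col20a1 was 0.0687 without a filter, 0.0681 with the offsets, 0.0115 in DESeq2, 0.0205 without mitochondrial genes and -0.66 to 0.65 with a library left out. With a library left out, Col23a1 ran from -0.72 to 0.14, Col4a6 from -0.85 to 0.11, Col17a1 from -1.31 to 0.34 and Col9a3 from -0.73 to 0.19. At 3 mice a group and a common dispersion of 0.265, the spread between mice exceeded counting error for the abundant collagens, and 9 collagens were not tested because too few libraries held enough counts.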
